A study of Mus musculus with 4 samples.

Results

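The nuclear oxidative phosphorylation subunit genes encode most of the respiratory chain and the ATP synthase. They were taken by name as every protein-coding gene whose symbol starts with Ndufa, Ndufb, Ndufc, Ndufs, Ndufv, Sdh followed by a, b, c or d, Uqcr, Cox4i, Cox5, Cox6, Cox7, Cox8 or Atp5, leaving out names with -ps or Gm. The rule used no measured value and gave 97 of the 46517 gene identifiers. By the product they encode, 36 belong to complex I, 4 to complex II, 8 to complex III, 20 to complex IV (with *Ndufa4*, *Ndufa4l2* and *Cox7a2l* counted there) and 16 to complex V. The other 13 were the *Ndufaf* and *Sdhaf* assembly factors and *Atp5s*, which the prefixes take in although they are not subunits.

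Blood vascular endothelial cells (BECs) of the ear dermis were collected from untreated adult female C57Bl/6 mice, aged 12 to 26 weeks per the labels, as pools of cells from 6 mice, and no other genotype or treatment was used. CD31+/CD45-/Lyve1- cells were sorted 1 per well and sequenced by Smart-seq2, which reads full-length cDNA, in 2 replicates, each on 2 plates of 384 wells. The study's methods give the substrain J and another, younger age range. Because each replicate was a pool, differences between mice could not be seen. The vessel classes compared below came from the data, not from the labels: artery-, capillary- and vein-like BECs were clusters named from markers, and no member was used to build them.

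Complexes I to IV pass electrons from NADH and succinate to oxygen and, except for complex II, pump protons across the inner mitochondrial membrane, and complex V uses the proton gradient to make ATP. Each complex other than complex II combines subunits encoded in the nucleus with a few encoded in mitochondrial DNA. BECs are known to draw much of their ATP from glycolysis, and several complex IV subunits exist as paired isoforms that differ between tissues or with oxygen.

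The 4 plates held 31864976 to 74739095 reads on genes, with spike-in shares of 0.268% and 0.279% on the plates of replicate 1 and of 2.15% and 2.56% on those of replicate 2. Of 1536 wells, 701 were kept as BECs, and 539 of these formed the 3 classes: 137 artery-like wells (36 in replicate 1 and 101 in replicate 2), 164 capillary-like wells (128 and 36) and 238 vein-like wells (118 and 120). The remaining 162 kept wells formed a cluster in which 9 mural, 5 keratinocyte and 4 lymphatic markers were higher. By marker count it would be mural, but the lymphatic genes *Mmrn1*, *Reln* and *Ccl21a* were among its leading genes, so it is given no cell type here and entered no comparison. Counts were summed per class and replicate into 6 sums of 2384405 (capillary-like, replicate 2) to 24187088 reads (vein-like, replicate 1). The 12 artery markers together reached 8672 and 5786 counts per 1000000 (CPM) in the artery-like sums against 2456 to 5155 CPM in the others, and the 12 vein markers 8969 and 8951 CPM in the vein-like sums against 1857 to 6067 CPM. The 12 capillary markers reached 15942 and 9212 CPM in the capillary-like sums and were the highest of each replicate there, but the artery-like sum of replicate 1 held 10412 CPM. In the same sums the 11 mural markers together reached 296 to 1580 CPM, the lymphatic markers 18.8 to 100.9 CPM and the immune markers 0.353 to 57.7 CPM, of which *Cd52* was at 0 in all. The fibroblast markers stood at 1188 CPM in the capillary-like sum of replicate 1 and at 58.3 to 189 CPM in the other 5. The artery-like class of replicate 2 was the least firm: at the next higher resolution of the clustering 24 of its 101 wells stayed artery-like and 74 fell into an unnamed cluster with 2 artery and 2 vein markers higher, against 19 and 13 of 36 in replicate 1. A further 46 wells with mural markers and little *Pecam1* (8 in replicate 1 and 38 in replicate 2) were summed separately.

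Before the levels, the promoters of the members are shown for one feature that the name rule did not use. NRF1 and GABP, a factor of the ETS family, are known regulators of respiratory chain genes. The RefSeq promoter table (GRCm38.p6, 250 bases before the annotated start) had an entry for 78 of the 97 members. On either strand, the NRF1 core GCATGCGC was found in 9 of these (11.5%) against 2.32% of all 27025 promoters, and the ETS core CCGGAAG in 15 (19.2%) against 7.05%. The YY1 core AAGATGGC was in 0 of the 78 and in 1.59% of all promoters, and TATAAA in 7.69% against 12.97%. The hypoxia response cores GCGTG and ACGTG were in 41.0% against 28.2% and in 19.2% against 16.6%, and no other motif was searched. The members' promoters also held more CpG, with a median of 14.5 CpG in 250 bases against 6 for all promoters. The NRF1 and ETS cores hold a CpG themselves, and the part of CpG content in their shares was not tested. The 9 stretches with the NRF1 core, which most of the 78 promoters lacked, are printed 5′ to 3′ on the strand of the gene. At most 20 bases are shown on each side and nothing past the start. The core is in capitals, including the overlapping core of the other strand where the site is palindromic.
*Atp5g2* (complex V, chr15:102671060-102671107, minus strand): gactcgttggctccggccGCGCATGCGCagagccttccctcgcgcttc
*Atp5k* (complex V, chr5:108434420-108434467, minus strand): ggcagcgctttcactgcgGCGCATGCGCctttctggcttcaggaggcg
*Atp5l* (complex V, chr9:44920955-44920992, minus strand): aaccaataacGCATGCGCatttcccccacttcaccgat
*Cox6a1* (complex IV, chr5:115349091-115349138, minus strand): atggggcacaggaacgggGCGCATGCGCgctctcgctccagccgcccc
*Ndufa11* (complex I, chr17:56717684-56717731, plus strand): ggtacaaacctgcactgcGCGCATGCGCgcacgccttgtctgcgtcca
*Ndufa6* (complex I, chr15:82354347-82354394, minus strand): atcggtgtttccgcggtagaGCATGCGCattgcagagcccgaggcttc
*Ndufa8* (complex I, chr2:36049339-36049366, minus strand): gcttgcgcgtcgctggagacGCATGCGC
*Ndufaf4* (assembly factor, chr4:24897952-24897999, plus strand): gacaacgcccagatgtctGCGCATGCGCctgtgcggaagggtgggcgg
*Sdhb* (complex II, chr4:140961197-140961244, plus strand): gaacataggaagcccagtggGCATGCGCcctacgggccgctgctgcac
The cores lay between position -240 (*Atp5l*) and -8 (*Ndufa8*) from the start, and 5 of the 9 genes had 2 overlapping matches. *Cox6a1* and *Atp5l* also held the ETS core in the same 250 bases. For *Ndufa11* the bases after this start were not found in an annotated transcript. A match describes letters and not binding.

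The summed level of the members per well, as reads on the 97 genes per 1000000 reads on genes, was alike in the 3 classes of replicate 1 and lower and more scattered in replicate 2. In replicate 1 the lowest, median and highest wells were at 6523, 11749 and 22388 in artery-like BECs, at 6114, 11568 and 20677 in capillary-like BECs and at 4845, 11550 and 20427 in vein-like ones. In replicate 2 they were at 402, 6089 and 27435, at 520, 5203 and 21526 and at 951, 8746 and 19430. The ranges of all 6 groups overlapped. Vein-like BECs had the highest median in replicate 2 only.

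**Figure D1:**
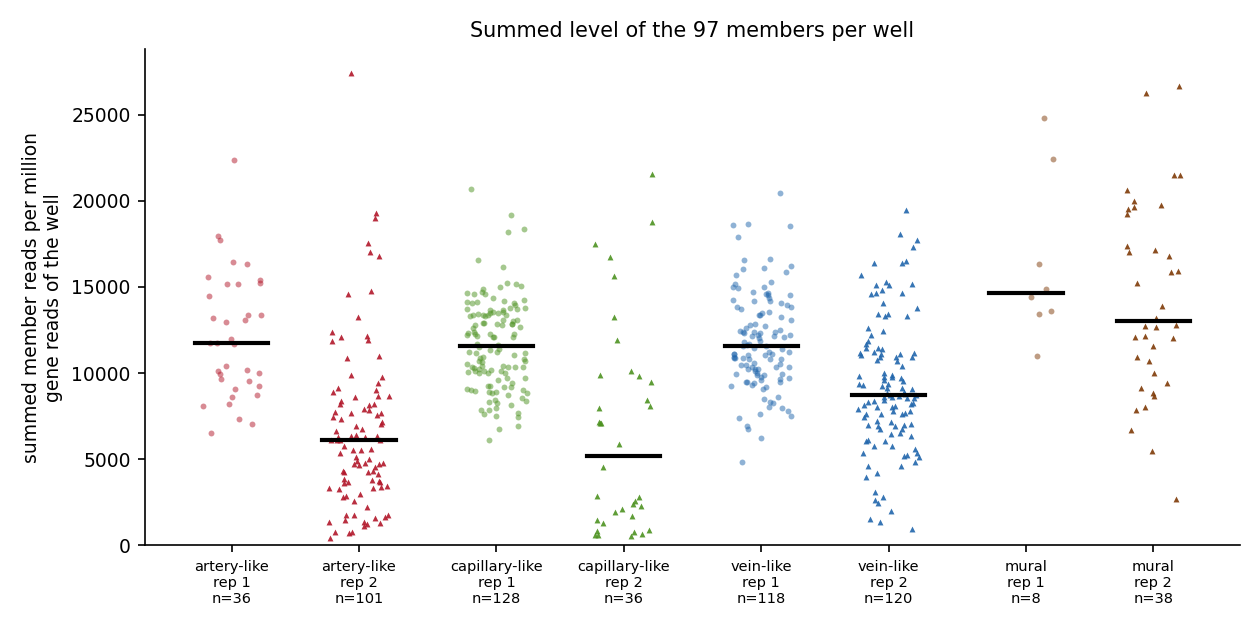
Reads on the 97 members per 1000000 gene reads of the well (vertical axis) in artery-like, capillary-like, vein-like and mural wells of replicates 1 and 2 (horizontal axis, n wells). Each point is a well and each bar the median, which lay between 11550 and 11749 in the endothelial classes of replicate 1 and between 5203 and 8746 in those of replicate 2.

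The wells of replicate 2 were also shallower and richer in spike-in and mitochondrial reads. The median number of reads per well was 114900 to 187922 in the 3 classes of replicate 1, and 90971, 30098 and 179911 in artery-, capillary- and vein-like BECs of replicate 2. Reads of the 13 mitochondrially encoded subunits had medians of 7161 to 9658 per 1000000 gene reads in replicate 1, and of 23416, 26482 and 11061 in the artery-, capillary- and vein-like wells of replicate 2. Across the 257 class wells of replicate 2 the summed level rose with depth (Spearman rho 0.49, a description over wells that share a pool), and across the 282 wells of replicate 1 it did not (rho -0.11). In wells with at least 50000 reads the medians of replicate 2 were 7059 (69 artery-like wells), 9873 (15 capillary-like wells) and 8920 (115 vein-like wells). Their part in the difference between replicates was not tested.

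Split by plate, the order of the classes was vein-like, capillary-like, artery-like on plate A of both replicates and another on each plate B. In replicate 1 the artery-like median was the lowest of the 3 on plate A (9934 against 10394 and 10904 for capillary- and vein-like BECs) and the highest on plate B (13201 against 12207 and 12145). In replicate 2 vein-like BECs were highest on both plates, at 8568 on plate A and 9325 on plate B, and artery-like BECs had 5441 and 6312. Capillary-like BECs ranged from 7637 (12 wells of plate A) to 2344 (24 wells of plate B).

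Summed over the wells and normalized by TMM (a scaling that assumes most genes do not change), the members took 12474, 11344 and 11146 CPM in the artery-, capillary- and vein-like sums of replicate 1 and 7716, 12559 and 8862 CPM in those of replicate 2. As means of the 2 replicates these were 10095 ± 3364 CPM for arteries, 11951 ± 859 CPM for capillaries and 10004 ± 1615 CPM for veins (SD, n = 2). The class means differed by less than the SD of the artery-like replicates. Complex V and complex I genes held 31.6% and 30.9% of this sum, complex IV 18.6%, complex III 10.5%, complex II 5.58% and the factors 2.73%.

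No member passed an adjusted p of 0.05 between the 3 classes. With edgeR's quasi-likelihood test on the 6 sums, 93 members had enough counts to be tested and 0 were called in artery-like against vein-like BECs, where 2 of all 15701 genes (0.0127%) were. Those 2 were *Sele* and *Selp*, venous adhesion genes among the markers that named the vein-like class. Likewise 0 members were called in artery-like BECs (0% of all genes), in capillary-like BECs (0%) and in vein-like BECs (0.0127%), each against the mean of the other classes. DESeq2 called 0 members in these 4 comparisons, beside 1.36%, 1.8%, 1.65% and 1.15% of all genes, and limma on mean CPM per well called at most 0.0191% of all genes and 0 members. The smallest adjusted p of any member over all alternatives was 0.21 in artery-like against vein-like BECs, and 0.27, 0.059 and 0.20 in artery-, capillary- and vein-like BECs against the others. The median standard error of a member's log2 change was 0.69 in artery-like against vein-like BECs and 0.59 to 0.60 in the other comparisons, and the smallest was 0.31, so even large changes of single members could go uncalled with 2 replicates. The replicate block takes out a shift common to all classes of a replicate. The p-values thus measure how far the class differences varied between the 2 replicates, which differ also in depth.

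At an unadjusted p below 0.05 in edgeR there were 0 of 93 members in artery-like against vein-like BECs, beside 4.1% of all genes, and 1 in artery-like BECs against the others, beside 4.17%. Capillary-like BECs had 5 (3 higher and 2 lower), beside 4.67%, and vein-like BECs had 0, beside 4.53%. DESeq2 gave 2, 2, 8 and 2 members at this limit in the same 4 comparisons, beside 8.48%, 9.84%, 11.3% and 8.3% of all genes. The limma fit gave 0, 1, 5 and 0 members, beside 4.8%, 4.71%, 7.5% and 5.33%. The median log2 change of the members was 0.02 in artery-like against vein-like BECs (all genes -0.06), -0.08 in artery-like (0.06), 0.27 in capillary-like (-0.15) and -0.16 in vein-like BECs (0.17).

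Capillary-like BECs had the highest median in edgeR, and their sum of replicate 2 was the smallest. In the limma fit on mean CPM per well their median was the lowest, at -0.24 (all genes -0.44), against -0.08 in artery-like (0.10) and 0.27 in vein-like BECs (0.34). Both capillary-like sums lay above the other 4 sums for 15 of the 93 members (16.1%), and for 5.45% of all genes. The median of the members was -0.08 (all genes -0.00265) when the sum of the 36 capillary-like wells of replicate 2 was left out, and the count at an unadjusted p below 0.05 was then 0 in place of 5, while the share of all genes went from 4.67% to 3.08%. The fibroblast markers were also higher in capillary-like BECs, with 5 of the 6 tested at an unadjusted p below 0.05 and a median log2 change of 2.46, and 0 called. Their part in the members' values was not tested.

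**Figure D2:**
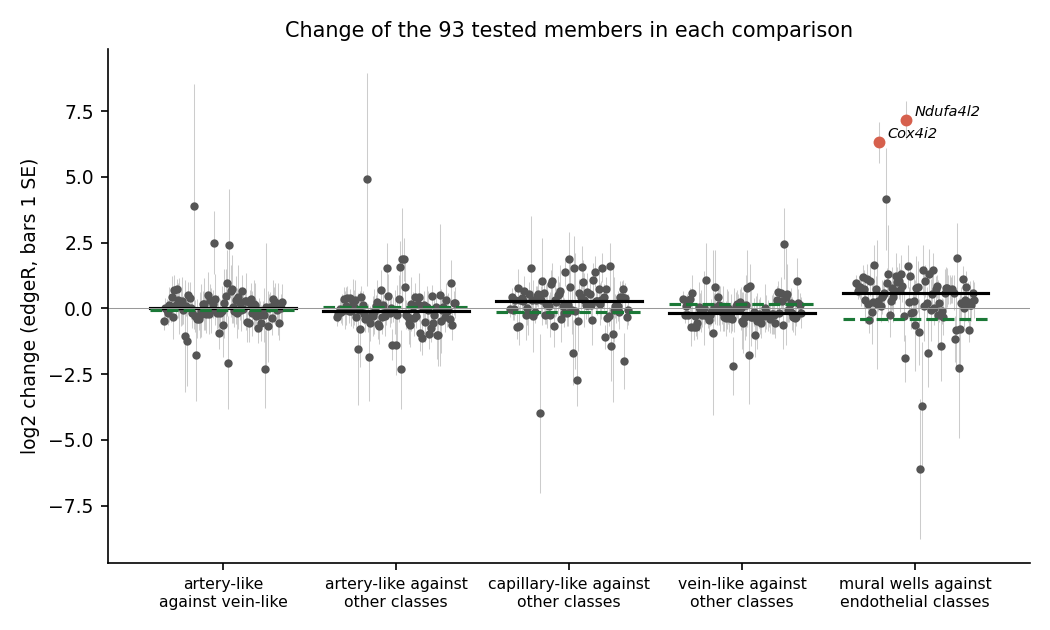
Log2 change of the 93 tested members (vertical axis) in 5 comparisons (horizontal axis), with bars of 1 SE. The solid line is the median of the members and the dashed line that of all genes tested, and the points in red, *Ndufa4l2* and *Cox4i2* in mural wells, are those past an adjusted p of 0.05.

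Of the 5 smallest p-values in capillary-like BECs, 4 were of complex I, the NADH dehydrogenase, which holds 36 of the 97 members. *Ndufs7*, which carries an iron-sulphur cluster of the core, was at 91.2, 138 and 114 CPM in the artery-, capillary- and vein-like sums of replicate 1 and at 80.2, 460 and 91.9 CPM in those of replicate 2. The capillary-like sum was the highest of each replicate, and the log2 change against the other classes was 1.54 (SE 0.55, unadjusted p = 0.022 and adjusted p = 0.89 by edgeR). *Ndufa8*, an accessory subunit, was at 144, 235 and 187 CPM and at 40.8, 337 and 134 CPM. Capillary-like BECs were again highest and artery-like BECs lowest in both replicates, with log2 changes of 1.39 (SE 0.53, unadjusted p = 0.031, adjusted p = 0.89) for capillary-like and -1.39 (SE 0.59, unadjusted p = 0.045, adjusted p = 1) for artery-like BECs.

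*Ndufs1*, the largest core subunit, was at 62.5, 97.03 and 61.6 CPM and at 40.9, 288 and 108 CPM, and *Ndufv1*, which binds NADH, ran the other way with 190, 135 and 253 CPM and 206, 68.2 and 185 CPM. Their capillary-like changes were 1.39 (SE 0.58, unadjusted p = 0.043, adjusted p = 0.89) and -1.09 (SE 0.46, unadjusted p = 0.046, adjusted p = 0.89) on the log2 scale. *Ndufaf7*, an assembly factor of complex I, was lowest in capillary-like BECs of both replicates at 13.6 and 2.99 CPM, against 32.7 to 94.7 CPM in artery-like and 27.8 to 40.3 CPM in vein-like BECs (log2 change -2.71, SE 0.99, unadjusted p = 0.026, adjusted p = 0.89). Values of complex I genes thus lay on either side in the same sums.

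None of the catalytic and core subunits of the other complexes passed the test. *Sdha*, the flavoprotein of succinate dehydrogenase (complex II), had 337, 272 and 302 CPM in the artery-, capillary- and vein-like sums of replicate 1 and 191, 172 and 259 CPM in replicate 2. *Sdhb*, its iron-sulphur subunit, had 176, 193 and 143 CPM and 96.6, 100.6 and 116 CPM. The classes overlapped for both. *Sdhaf2*, which helps to attach the flavin to *Sdha* protein, had 60.1, 71.3 and 56.5 CPM in replicate 1 and 4.59, 0.996 and 47.9 CPM in replicate 2, where the vein-like sum alone stayed near the level of replicate 1 (log2 change of vein-like BECs 2.46, SE 1.35, unadjusted p = 0.10, adjusted p = 0.998). In complex III, *Uqcrc1*, a core protein, was highest in the capillary-like sum of both replicates (462 and 710 CPM against 279 to 407 CPM elsewhere, log2 change 0.74, SE 0.35, unadjusted p = 0.071, adjusted p = 0.89). *Uqcrfs1*, the Rieske iron-sulphur protein, had 174, 137 and 178 CPM and 51.8, 174 and 126 CPM. *Uqcrc2*, the other core protein, was at 5.48 CPM in the capillary-like sum of replicate 2 and at 107 to 190 CPM in the other 5 sums.

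In complex IV, *Cox5a* had 208, 156 and 142 CPM in replicate 1 and 159, 127 and 117 CPM in replicate 2, and *Cox5b* 105, 85.5 and 80.0 CPM and 80.4, 115 and 62.2 CPM. Both artery-like sums of *Cox5a* lay just above the other 4, and the classes overlapped for *Cox5b*. *Atp5a1* and *Atp5b*, the alpha and beta subunits of the ATP synthase head, were among the most abundant members. *Atp5b* had 1229, 1083 and 1009 CPM in replicate 1 and 742, 1518 and 902 CPM in replicate 2, and its artery-like against vein-like change was 0.03 on the log2 scale (SE 0.36). *Atp5a1* had 575, 546 and 647 CPM and 407, 577 and 703 CPM, with vein-like BECs highest in both replicates and an artery-like against vein-like change of -0.47 (SE 0.36, unadjusted p = 0.23, adjusted p = 0.9998). *Atp5c1*, the central stalk, had 285, 344 and 357 CPM and 261, 206 and 234 CPM. *Atp5j*, which couples the head to the membrane part, was higher in artery-like than in vein-like BECs in both replicates (474 against 262 CPM and 276 against 183 CPM, log2 change 0.73, SE 0.40, unadjusted p = 0.11, adjusted p = 0.9998).

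Compared per length, as mean CPM per well divided by the kilobases of annotated exon, the ubiquitous isoforms of complex IV led the list. *Cox4i1* was at 320 ± 136 and *Cox6a1* at 315 ± 124 CPM per kb, followed by *Cox8a* at 261 ± 87.5 CPM per kb (SD, n = 2 replicates). In complex I the highest were *Ndufa8* (229 ± 37.5 CPM per kb) and *Ndufb9* (170 ± 80.0 CPM per kb). In complex V they were *Atp5b* (212 ± 52.1 CPM per kb) and *Atp5a1* (169 ± 27.3 CPM per kb). *Uqcr11* (132 ± 53.4 CPM per kb) and *Uqcr10* (112 ± 31.3 CPM per kb), small subunits, led complex III. *Sdha* and *Sdhb* led complex II with 59.1 ± 15.5 and 57.9 ± 24.8 CPM per kb. Within each of these pairs, and between *Cox6a1* and *Cox8a*, the difference was smaller than the larger SD between replicates. The length used matters here: per kb of the longest annotated transcript the order was *Cox4i1* (649 CPM per kb), *Atp5b* (468 CPM per kb), *Cox6a1* (356 CPM per kb), *Atp5j* (301 CPM per kb) and *Cox8a* (294 CPM per kb).

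The median of the assembly factors was below that of each complex on the same scale. It was 8.05 CPM per kb, with *Sdhaf4* and *Ndufaf8* highest at 22.3 ± 1.12 and 20.6 ± 2.24 CPM per kb and *Sdhaf3* lowest at 1.60 ± 1.16 CPM per kb, whereas the medians of complexes I, II, III, IV and V were 55.1, 56.7, 85.5, 32.8 and 52.1 CPM per kb. The ranges overlapped, since *Ndufab1* of complex I stood at 4.97 CPM per kb, *Atp5l* of complex V at 9.48 CPM per kb and 6 isoforms of complex IV at 0 to 2.01 CPM per kb. The 10 most abundant members by CPM held 38.5% of the summed level. The order of the 97 members was similar in all 6 sums, with Pearson's r of 0.79 to 0.97 between log2 levels, given as a description over genes in sums that share pools.

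**Figure D3:**
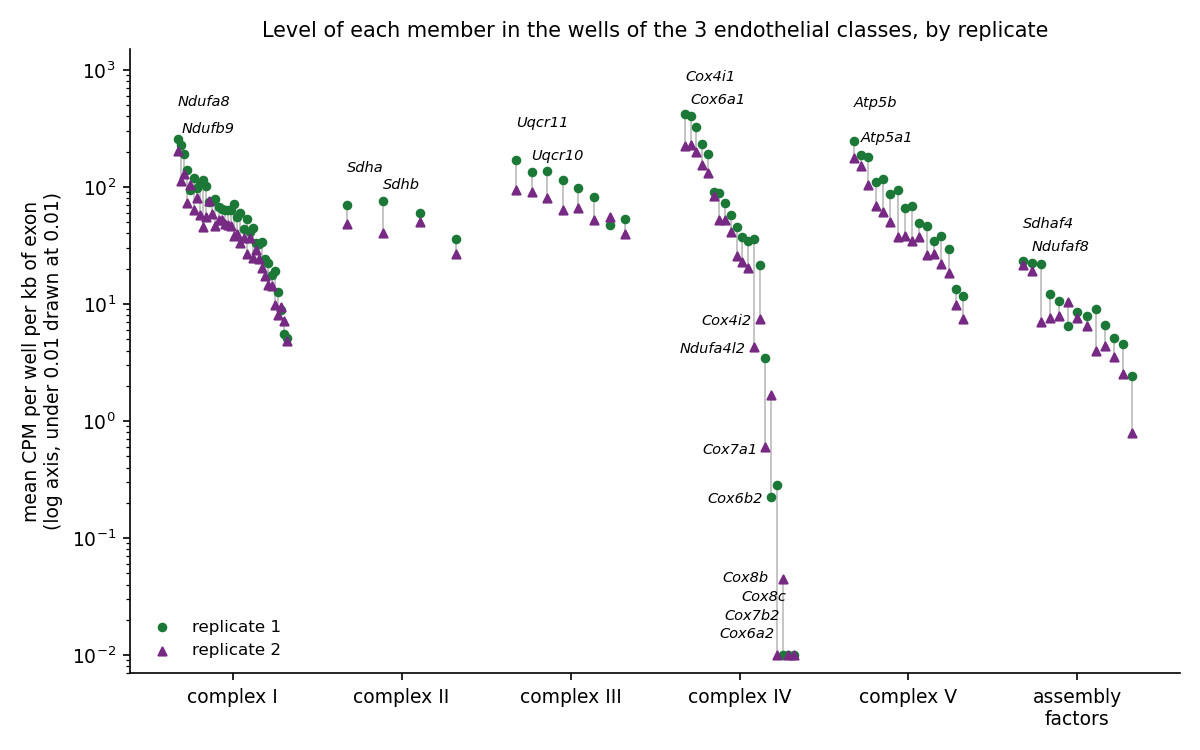
Mean CPM per well per kb of annotated exon (vertical log axis, values under 0.01 drawn at 0.01) of each of the 97 members in the wells of the 3 endothelial classes, ordered by level within each complex (horizontal axis), with replicate 1 as circles and replicate 2 as triangles joined by a line. *Cox4i1* and *Cox6a1* stood highest at 320 and 315 CPM per kb as means of both replicates, and the means of 6 complex IV isoforms fell below that of every other subunit.

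Reads at identical positions had been counted once by the authors, which limits short and abundant genes. Members also differed in how much of their coding transcripts could be told apart from other genes: 46 shared no 50-base stretch with another gene's transcripts, and 18 shared more than 20% of them. The share was 84.9% for *Atp5l*, 69.0% for *Sdhaf1*, 43.4% for *Uqcrb* and 38.4% for *Atp5g2*. It was 37.55% for *Atp5f1*, 32.05% for *Cox5a*, 24.2% for *Uqcrc2*, 23.4% for *Ndufb9* and 21.8% for *Cox5b*. The levels of these genes, and of the others of the 18, are uncertain. *Sdhaf1* also overlaps a gene on the other strand over 69.6% of its exon bases, and whether strand was used in counting was not stated in the sources used here.

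The paired *Cox* isoforms of complex IV were present mostly in their ubiquitous form in the 3 BEC classes. *Cox6a2* and *Cox8b*, the forms of striated muscle, had 1 and 6 reads among 85139281 reads in the 539 class wells, and *Cox7b2* and *Cox8c*, known from testis, had 0, which allows a level of up to 0.124 CPM in the deepest sum and 1.26 CPM in the shallowest (3 reads of the sum, counting error only). *Cox7b2* was also without a read in all 701 kept wells. *Cox7a1*, another muscle form, had 89 reads in 16 wells and *Cox6b2* 109 reads in 8 wells, and the highest of their 6 sums were 2.30 and 7.76 CPM. Their counterparts were all found. *Cox6a1* ran from 156 to 280 CPM, *Cox8a* from 121 to 231 CPM, *Cox7a2* from 33.6 to 93.6 CPM, *Cox7b* from 26.98 to 48.9 CPM and *Cox6b1* from 82.3 to 170 CPM over the 6 sums. *Cox7a2l*, whose product links complexes III and IV, ran from 202 to 428 CPM.

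The c-ring of the ATP synthase is made of 1 protein encoded by the 3 genes *Atp5g1*, *Atp5g2* and *Atp5g3*. Per kb of exon, *Atp5g3* made up 43.1% to 63.5% of the 3 in the 6 sums, *Atp5g2* 10.7% to 45.7% and *Atp5g1* 10.1% to 26.7%. With the longest annotated transcript as the length, shares added after these values were seen, the ranges were 49.1% to 75.4%, 11.3% to 45.7% and 4.59% to 13.2%, so the level of *Atp5g1* against the others depends on the length used. In vein-like BECs of both replicates the share of *Atp5g2* was higher (45.7% and 38.9%) than in artery-like BECs (27.4% and 26.4%), and likewise with the longest transcript (45.7% and 39.2% against 27.5% and 25.5%), a difference that was not tested. *Atp5g3* had 146, 106 and 92.1 CPM in the artery-, capillary- and vein-like sums of replicate 1 and 125, 159 and 73.3 CPM in those of replicate 2. Vein-like BECs were lowest in both replicates (log2 change -0.70, SE 0.51, unadjusted p = 0.21 and adjusted p = 0.998).

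*Ndufa4l2* and *Cox4i2* are isoforms known to be induced at low oxygen. *Ndufa4l2* (chr10:127514967-127517154, plus strand, mm10) is the paralogue of *Ndufa4*, and *Cox4i2* (chr2:152754173-152765037, plus strand) that of *Cox4i1*, and neither shares a 50-base stretch with another gene. *Ndufa4l2* was at 62.3, 54.4 and 17.1 CPM in the artery-, capillary- and vein-like sums of replicate 1 and at 6.52, 3.48 and 0.735 CPM in those of replicate 2. In these sums the order artery-like, capillary-like, vein-like held in both replicates. The same was true of 2 of the 93 members and of 2.13% of all genes. The sums of all classes of replicate 1 lay above those of replicate 2. By mean CPM per well the order held in replicate 1 (55.3, 51.9 and 20.9 CPM) but not in replicate 2 (7.102, 8.815 and 1.496 CPM). The highest artery-like well of replicate 2 stood at 408 CPM.

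The artery-like against vein-like log2 change of *Ndufa4l2* was 2.49 (SE 1.20, unadjusted p = 0.071, adjusted p = 0.9998), the smallest p of any member in that comparison, and over 17 alternatives it ran from -0.13 to 3.56 with an adjusted p of at least 0.21. In replicate 1 a read was found in 30 of 36 artery-like, 101 of 128 capillary-like and 98 of 118 vein-like wells, and in replicate 2 in 20 of 101, 5 of 36 and 16 of 120. *Cox4i2* showed no such order, with 17.9, 16.6 and 12.995 CPM in replicate 1 and 1.15, 2.49 and 8.16 CPM in replicate 2. In vein-like BECs of replicate 2 its reads came from 10 of 120 wells, the highest of which stood at 477 CPM. *Rgs5*, a mural marker, had 1178, 1199 and 258 CPM in the same sums of replicate 1 and 68.3, 71.1 and 58.1 CPM in replicate 2. Its part in the levels of both isoforms was not tested. There were 5.30, 4.50 and 6.67 *Ndufa4l2* reads per 100 *Rgs5* reads in the artery-, capillary- and vein-like sums of replicate 1, 9.38, 4.76 and 1.26 in replicate 2, and 14.9 and 16.2 in mural wells. For *Cox4i2* the ratio was 1.38 to 5.07 in 5 of the class sums, 13.98 in the vein-like sum of replicate 2, and 6.35 and 9.38 in mural wells. Against *Higd1b*, another mural marker with 2 to 193 reads in the class sums, the *Ndufa4l2* ratio was 2014 and 1850 reads per 100 in the artery-like sums (14 and 4 *Higd1b* reads), 551 and 350 in the capillary-like sums (193 and 2 reads), 371 and 27.5 in the vein-like sums, and 293 and 341 in mural wells. For *Cox4i2* the ratio to *Higd1b* was 168 to 579 reads per 100 in the 6 class sums and 125 and 197 in mural wells.

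In the mural wells, both isoforms were far higher and were the only members past the threshold in edgeR. These wells were chosen by at least 300 CPM of *Pdgfrb* or *Kcnj8* and fewer than 100 CPM of *Pecam1*, and no member entered that choice. *Ndufa4l2* was at 1187 CPM in the mural sum of replicate 1 and 898 CPM in that of replicate 2, and *Cox4i2* at 506 and 520 CPM. Neither mural sum overlapped any of the 6 BEC sums. Against the mean of the BEC classes, in an edgeR fit of 8 sums with the replicate as a block that was added after these values were seen, the log2 change was 7.16 for *Ndufa4l2* (SE 0.74, adjusted p = 0.00084) and 6.31 for *Cox4i2* (SE 0.78, adjusted p = 0.0019). The call of 2 of 93 members stood beside 3.18% of all 16165 genes tested, and both were also called on plate A and on plate B taken alone. The log2 change of *Ndufa4l2* was 8.44 without the mural sum of replicate 1 and 4.93 without that of replicate 2. Over 8 alternatives its adjusted p was at most 0.024, and that of *Cox4i2* at most 0.060, reached without the mural wells of replicate 2, where its log2 change was 4.88 (7.34 without those of replicate 1). A read of *Ndufa4l2* was found in 8 of 8 and 34 of 38 mural wells.

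Their counterparts did not pass the test. *Ndufa4* had 67.0 and 10.2 CPM in the mural sums against 104 to 204 CPM in the 6 BEC sums (log2 change -1.90, SE 0.89, unadjusted p = 0.057, adjusted p = 0.34), and so lay below every BEC sum. *Cox4i1* had 804 and 481 CPM in the mural sums against 316 to 760 CPM (log2 change 0.27, SE 0.37, adjusted p = 0.77). Per kb of exon, *Ndufa4l2* made up 95.7% and 99.1% of the *Ndufa4* pair in mural wells and 0.864% to 39.7% in the BEC sums. *Cox4i2* made up 55.3% and 68.0% of the *Cox4i1* pair in mural wells and 0.709% to 5.30% in the BEC sums. With the longest annotated transcript as the length, the *Cox4i2* share was 39.6% and 53.0% in mural wells and 0.378% to 2.88% in the BEC sums, so which isoform of the pair was higher in the mural wells of replicate 1 depends on the length used, whereas that of *Ndufa4l2* was 95.7% and 99.1% and 0.850% to 39.3%.

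None of the other members passed the threshold in mural wells in edgeR, while DESeq2 called 3 members, *Ndufaf5* (lower) in addition, beside 15.4% of all genes. In edgeR, at an unadjusted p below 0.05 there were 8 members, 7 of them higher and 1 lower, beside 15.4% of all genes, and after the 2 isoforms the smallest p-values were those of *Atp5a1* (1294 and 914 CPM against 407 to 703 CPM, log2 change 0.95, SE 0.32, unadjusted p = 0.014, adjusted p = 0.19) and of *Atp5f1*, a stalk subunit of the ATP synthase (504 and 198 CPM against 59.2 to 208 CPM, log2 change 1.18, SE 0.47, unadjusted p = 0.029, adjusted p = 0.27). The median log2 change of the 93 members was 0.57, beside -0.41 for all genes. The summed level per well had a median of 14643 in the 8 mural wells of replicate 1 and of 13002 in the 38 of replicate 2. In edgeR 10 of the 11 mural markers were called higher in these wells, 2 of them by the choice of the wells. Of the 7 fibroblast markers 4 (*Col1a1*, *Col1a2*, *Col3a1* and *Dpt*) were called higher as well. The fibroblast list stood at 3586 and 5214 CPM in the mural sums against 58.3 to 1188 CPM in the BEC sums. Which of these cell types the isoforms came from cannot be told apart here, and the CD31+ gate of the sort would remove pericytes, smooth muscle cells and fibroblasts. *Pecam1* was at 77.6 and 21.3 CPM in the mural sums.

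**Figure D4:**
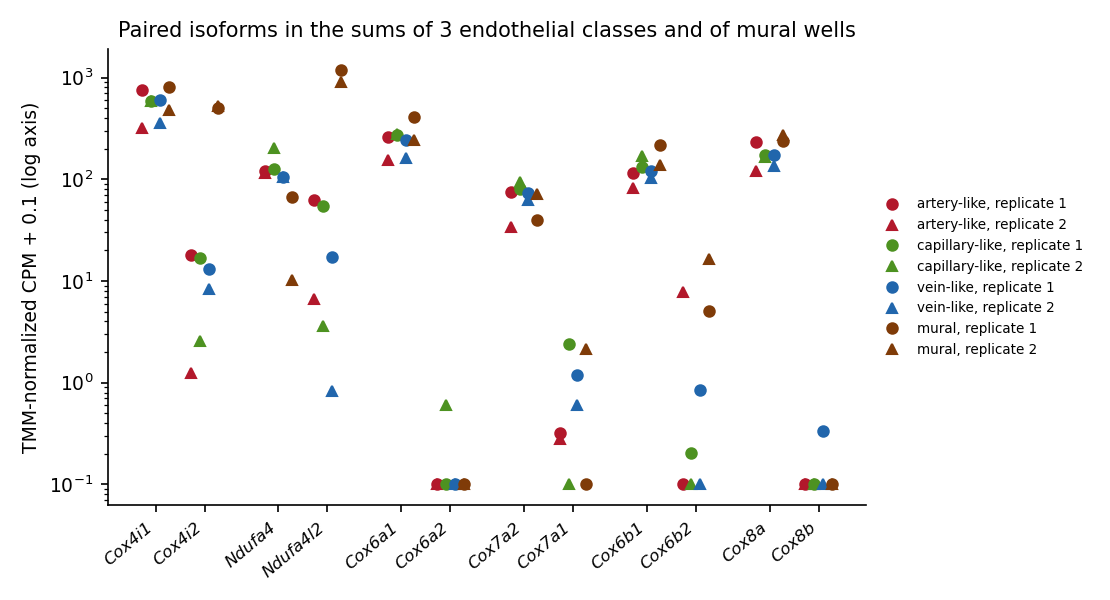
TMM-normalized CPM plus 0.1 (vertical log axis) of 6 pairs of ubiquitous and tissue- or oxygen-dependent isoforms (horizontal axis) in the sums of artery-like, capillary-like, vein-like and mural wells of replicates 1 (circles) and 2 (triangles). *Ndufa4l2* stood at 1187 and 898 CPM and *Cox4i2* at 506 and 520 CPM in mural wells, above all BEC sums, whereas *Ndufa4* lay below them at 67.0 and 10.2 CPM.

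The genes that work with the members were also without a called difference between BEC classes in edgeR. The 13 mitochondrially encoded subunits of the same complexes had 8613, 7132 and 9008 CPM in the artery-, capillary- and vein-like sums of replicate 1 and 21443, 34070 and 11142 CPM in those of replicate 2. They were thus higher in every class of replicate 2, where the nuclear members were lower in 2 of the 3 classes, and 0 of the 12 tested reached an unadjusted 0.05 in any comparison between classes. *mt-Co2* and *mt-Co3*, 2 mitochondrially encoded subunits of complex IV, had only 9 and 227 reads in the class wells against 201415 for *mt-Co1*, so the mitochondrial sum does not stand for all 13 genes.

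Assembly factors outside the name rule (38 genes), partners and carriers such as cytochrome c and the adenine nucleotide translocases (11 genes), the tricarboxylic acid cycle (18 genes), regulators of mitochondrial biogenesis (13 of 15 tested) and the mitochondrial ribosome (78 genes) each had 0 genes called in the 4 comparisons. The list of partners and carriers is not separate from the members, since it includes the member *Atp5mpl*. The median log2 changes of these lists in artery-like against vein-like BECs were -0.27, -0.11, -0.25, -0.36 and -0.02, beside -0.06 for all genes. The smallest p among them was that of *Foxred1*, a complex I assembly factor, with 1.10, 20.7 and 38.2 CPM in replicate 1 and 1.32, 76.7 and 54.7 CPM in replicate 2. Artery-like BECs were lowest in both replicates (log2 change against vein-like BECs -5.25, SE 1.24, unadjusted p = 0.0028, adjusted p = 0.9998). *Pdk4*, which shuts pyruvate out of the cycle, was listed at 0 in both artery-like sums and at 9.53 and 0.812 CPM in the vein-like sums (unadjusted p = 0.032, adjusted p = 0.9998 by edgeR). Its capillary-like sums were at 0.205 and 0.996 CPM, so vein-like BECs were highest in replicate 1 only.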

How the data were processed

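Single CD31+/CD45-/Lyve1- cells of 2 replicates (2 plates of 384 wells each) were profiled by Smart-seq2. The deposited values are raw counts of reads per gene and well. Per the labels and the study's methods, the authors aligned single 50-base reads to mm10 with TopHat2 2.1.1, discarded duplicates with SAMtools 0.1.18, and used featureCounts of Subread 1.4.6-p5 for counting. The strand setting and annotation release were not given in the sources used here. Duplicate removal counts reads at identical positions once, which lowers short, abundant genes most, and Smart-seq2 reads carry no molecular identifiers.

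Wells were kept with at least 600 counts and 500 to 8000 genes, if 2 or more of the endothelial genes *Kdr*, *Cdh5* and *Pecam1* had a read and none of 5 genes of other cell types reached 100 CPM. No doublet caller was run, since 1 cell was sorted per well. Clusters (leidenalg 0.10.2, resolution 0.6, scran 1.30.0 size factors, without members) were named from marker lists, so class names were rebuilt here and are not the study's. Cells are not replicates: counts were summed per class and replicate and tested in R 4.3.3 with edgeR 4.0.16 (quasi-likelihood, TMM, at least 10 counts in at least 2 of 6 sums, Benjamini-Hochberg over all genes), with DESeq2 1.42.0 and limma 3.58.1 as alternatives. The limma fit used log2(mean CPM + 1). The replicate was a block, because wells of a replicate share a pool of mice, and deviations of same-numbered sums correlated at 0.13, 0.15 and 0.13. The fit was tried on simulated counts and at the dispersion of these data it had little power, so a count of 0 does not show that genes did not differ. Whether the replicates were separate pools is not settled by the labels. The p-values measure only the spread between these sums that the block leaves, and it may be technical.

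The members and gene lists were chosen with earlier results of these data known. The named genes were the isoform pairs, the catalytic and core subunits, members past the threshold, the 5 smallest p-values where fewer passed, and the 2 members highest per length in each complex. Of the genes named by this rule, 1 is not reported here. *Uqcrc2*, *Atp5j* beyond its place among the smallest p-values, *Foxred1*, *Pdk4*, *mt-Co1*, *mt-Co2*, *mt-Co3* and the members named for shared sequence were singled out after their values were seen. The mural comparison and the fit without the capillary-like sum of replicate 2 were likewise added after seeing the data. Lengths came from GENCODE vM21 exons. Floors cover counting error only.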

Additional observations from a re-analysis of the deposited data

Results flagged for a closer look

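One value among 33 summed levels and named genes compared over the 4 plates stood apart. *Cox8a*, the ubiquitous form of a small complex IV subunit, was at 216 CPM on plate B of replicate 1 and at 148, 136 and 143 CPM on the other 3 plates, and the gap between the highest plate and the next was 0.85 of the range over the 4 plates, above Dixon's limit for 4 samples. Chance flags about 1 in 20 such groups, and plates of 1 replicate share a pool.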

How the results depend on the processing

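The count of members called was 0 in each of the 4 class comparisons under all 15 alternatives that gave a test, among them other limits on wells, other classes, thinning to 20000 reads per well, plate A or B alone and the capillary-like sum of replicate 2 left out. Without the replicate block the counts were also 0, and 2 in mural wells, so the block changed no call of a member, while over all genes artery-like against vein-like BECs had 0 calls in place of 2. At the dispersion of these data edgeR's test could hardly make a call, so its counts of 0 say nothing about stability. DESeq2, 1 of the alternatives, called 1.15% to 1.8% of all genes and 0 members in the 4 class comparisons. With replicate 1 or replicate 2 left out, each class had a single sum and no test was possible. In mural wells the count of 2 ranged from 1 to 2 when mural replicate 2 or mural replicate 1 was left out, where the lone mural sum is assumed to vary like the other groups, and DESeq2 called 3, the additional one *Ndufaf5*, beside 15.4% of all genes. The median log2 change of the members was above 0 in 9 of 17 alternatives for artery-like against vein-like BECs, in 4 for artery-like, in 14 for capillary-like and in 4 for vein-like BECs. The limit of 10 CPM on genes of other cell types, 1 of these alternatives and of the 15 above, kept 18 wells of replicate 1. Among them 1 was artery-like, 6 were capillary-like and 9 vein-like, so its artery-like values of replicate 1 rest on 1 well. The summed level per class, as the mean of both replicates' medians, moved by less than the SD of those medians, which leaving out a replicate does by construction, and the order of the classes changed among the alternatives in both replicates. Using the longest annotated transcript as the length kept 8 of the 10 genes that led complexes I to V. At the next higher resolution of the clustering 45 wells were artery-like in place of 137, and the artery-like median of replicate 2 was 7811 in place of 6089. Depth was lowest in the capillary-like BECs of replicate 2 (median of 30098 reads per well), and 2 replicates give wide intervals.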
